A study of Xenopus tropicalis with 192 samples.

Results

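The gene cop1 lies on chromosome 4 of *Xenopus tropicalis*, from 98558185 to 98649487 in the assembly UCB_Xtro_10.0, and RefSeq lists it as gene 548953. CpG sites were taken as members when they lay in this span or within 5 kb of it. Of the 6717 CpGs measured in the study, 1 met this rule, and it is called the cop1 CpG here. The gene was chosen on measured values, because the methylation of this CpG has 1 of the most positive correlations with age in the adults. Its relation with age is therefore a description, and no test of it is given. The tests of this CpG below compare strains and tanks of equal or nearly equal age, tadpoles with young adults, and tank mates with each other. All adults entered the correlation by which the gene was chosen, and low values in the young adults make it more positive. Their comparison with tadpoles and that among their strains are thus not free of this choice.

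COP1 is a ubiquitin ligase that carries a RING finger and a domain of WD repeats. In plants it represses light responses in the dark by sending transcription factors to the proteasome. In mammals it works with DET1 and a cullin-based ligase, Tribbles proteins bring it some of its substrates, and JUN and ETS-family factors are among the proteins it marks for degradation. In vertebrate genomes most CpGs within gene bodies are methylated, and a CpG at an intermediate level differs between cells or between the chromosome copies of a cell.

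Methylation had been measured by targeted bisulfite sequencing (TBS), in which probes capture chosen regions and bisulfite turns unmethylated cytosines into bases read as T. The study chose these regions because their CpGs followed age in its earlier whole-genome data from webbing skin. The value of a CpG is the fraction of its reads that still show C. The 187 adults were sampled from the webbing of the hindlimb, and 5 tadpoles were used whole. The files hold no gene expression, so these tissues were not checked against marker genes. A fraction is an average over the cells of a sample, and a different mixture of cells cannot be told apart from a different methylation within the cells.

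All frogs, controls included, had the Nigerian background of the National Xenopus Resource, and many carried a transgene. Under 1 year, the adults were NIGERIAN F8 of 269 days, Xtr.Tg(cryga:GFP)Grngr of 273 days and SUPERMAN F8 of 332 days. The next older were TYR and 1 tubb2b GFP frog of 547 days, Xtr.Tg(CMV:Aequorin,GFP)NXR of 726 days, CMV MEM GFP of 841 days, OLIG2 F1 of 899 days and WT Superman of 937 days. These were followed by Xtr.Tg(otx2:GFP)Kellr of 1105 and 1532 days, sox3 F0 of 1300 days, a second age of Xtr.Tg(CMV:Aequorin,GFP)NXR at 1337 days, NXR 1111 of 1507 days, gtpbp2 F1 KO of 1693 days and tlx3 F0 of 1937 days. Older adults were tubb2b GFP of 2059 days and Xtr.Tg(eef1a1:GFP)Krieg of 2523 days. The Mead lines followed. At 2860 days it was Xtr.Et(eef1a1:GFP)cenMead, and at 2878 days there were Xtr.Et(CAGGS-SB10;cryga:RFP)Mead, Xtr.Et(eef1a1:GFP)folMead and Xtr.Et(eef1a1:GFP)psvbiMead. Next were Xtr.Et(CAGGS-SB10;cryga:RFP)7M8FMead of 3090 days, Xtr.Et(eef1a1:GFP)hbrMead of 3100 days, Xtr.Et(eef1a1:GFP)johMead of 3188 days and, at 3301 days, the 8FMead line, an Xtr.Et line with CAGGS-SB10 and cryga:RFP and also CAGGS:GFP. After this mention, cenMead, folMead, psvbiMead, hbrMead and johMead stand for the lines with these endings. The oldest were Xtr.Tg(cryga:GFP)Grngr of 3583 days and Xtr.Tg(eef1a1:GFP)Krieg of 3987 days. The tadpoles were 3 Superman F9 WT animals of about 89 days and 2 ZBTB14 KO animals of about 177 days. The 3 Xtr.Tg(cryga:GFP)Grngr animals of 273 days are titled as tadpoles but labelled as hindlimb webbing, and were counted as adults by that tissue. The labels do not state what the knockout or transgenic alleles do to these animals beyond their names. A group is a strain at an age, the frogs of a tank share both but for 1 frog of the tubb2b GFP tank, and most groups came from a single tank, so that strain, tank and age cannot be told apart between most groups.

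Probes of the TBS panel that bear on cop1 are printed here, because they show how much of the gene could be measured. They run 5′ to 3′ in lower case, with every CpG in capitals, and their intervals are those of the study's probe list on the same assembly. The probe at chr4:98635844-98635964 holds a single CpG, which is the cop1 CpG. It lies 77719 bp from the lower end of the cop1 span and 13583 bp from its upper end. The annotation used here gives neither the strand of the gene nor its exons, so exon, intron or untranslated region is not assigned here.
cop1 CpG: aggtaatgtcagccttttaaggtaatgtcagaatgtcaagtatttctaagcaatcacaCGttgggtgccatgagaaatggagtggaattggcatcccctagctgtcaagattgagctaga
The nearest measured CpG of all lies 68106 bp away, outside cop1 and 6814 bp from pappa2, which encodes a protease of insulin-like growth factor binding proteins. It is called the flanking CpG below. It is the first of the CpGs in its probe, at chr4:98703950-98704070, and the other had no value in the table analysed here.
Flanking CpG: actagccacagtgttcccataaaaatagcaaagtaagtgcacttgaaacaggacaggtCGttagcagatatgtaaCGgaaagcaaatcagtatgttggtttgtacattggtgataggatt
On the other side, the nearest measured CpG is the last of 5 in the probe at chr4:98529428-98529548, which lies 28659 bp outside cop1 and 106378 bp from the cop1 CpG.
Other side: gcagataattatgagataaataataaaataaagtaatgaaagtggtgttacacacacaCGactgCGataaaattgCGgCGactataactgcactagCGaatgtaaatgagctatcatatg
The panel has 3 probes inside the cop1 span with 9 CpGs between them, and the other 2 probes, with 8 CpGs, gave no value in the table analysed here. What follows is thus the record of 1 site in a gene of 91303 bp.

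The cop1 CpG was partly methylated in every frog. Over the 187 adults its methylation ranged from 0.270 to 0.875, with a median of 0.573 and a mean of 0.575 ± 0.154 (SD). This mean was lower than that of most sites, at percentile 8.6 of the 6175 CpGs left by the study's filter as rebuilt here, whose median was 0.898. The SD was at percentile 97.2, against a median SD of 0.0283. Frogs of the same tank also differed at this site more than at most others. The SD within tanks was 0.0846, at percentile 95.7. These percentiles of SD were not adjusted for the mean, and sites near full methylation have less room to vary. The study required at least 100 reads for each value, at which counting error has an SD of at most 0.05. Of the 24 tanks with at least 4 frogs, the narrowest was A133 of the 3987-day frogs, with an SD of 0.0184 over 8 frogs. The widest was A228 of SUPERMAN F8, with an SD of 0.127 over 9 frogs.

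Among the 24 groups with at least 2 adults, the lowest mean was that of NIGERIAN F8, with 0.377 ± 0.107 (SD, n = 19). The highest was that of Xtr.Tg(eef1a1:GFP)Krieg at 2523 days, with 0.774 ± 0.0203 (SD, n = 5). No pair of neighbours in the order of means was separated. In 23 of 23 adjacent pairs the ranges of the 2 groups overlapped, and the largest step between adjacent means was 0.0624.

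The methylation of the cop1 CpG was higher in older frogs. In the 48 adults under 2 years the lowest, median and highest values were 0.270, 0.453 and 0.668. In the 61 adults of 2 to 5 years they were 0.338, 0.494 and 0.757. In the 32 adults of 5 to 8 years they were 0.360, 0.709 and 0.875. In the 46 adults over 8 years they were 0.362, 0.739 and 0.845. The ranges overlapped, but the median rose most between the second and the third of these bands, and some old frogs were as low as young ones. Each frog was sampled once. The Spearman correlation with age was 0.675 over 187 adults, with a standard error of 0.106 when tanks were left out in turn, and was the second most positive of 6175. The Pearson correlation was 0.703, and stayed between 0.694 and 0.702 when any 2 of the 22 oldest frogs were left out. Over the means of the 32 adult tanks, methylation rose by 0.0294 ± 0.00481 (SE) per year. As background, 5.18% of the 6175 CpGs had a positive age correlation at a Benjamini-Hochberg adjusted p under 0.001, and 30.9% had a negative one. These are shares of a panel picked for age correlation in earlier data, not of the genome. Nothing is read from the place of the cop1 CpG among the former, since it was chosen on this contrast.

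**Figure D1:**
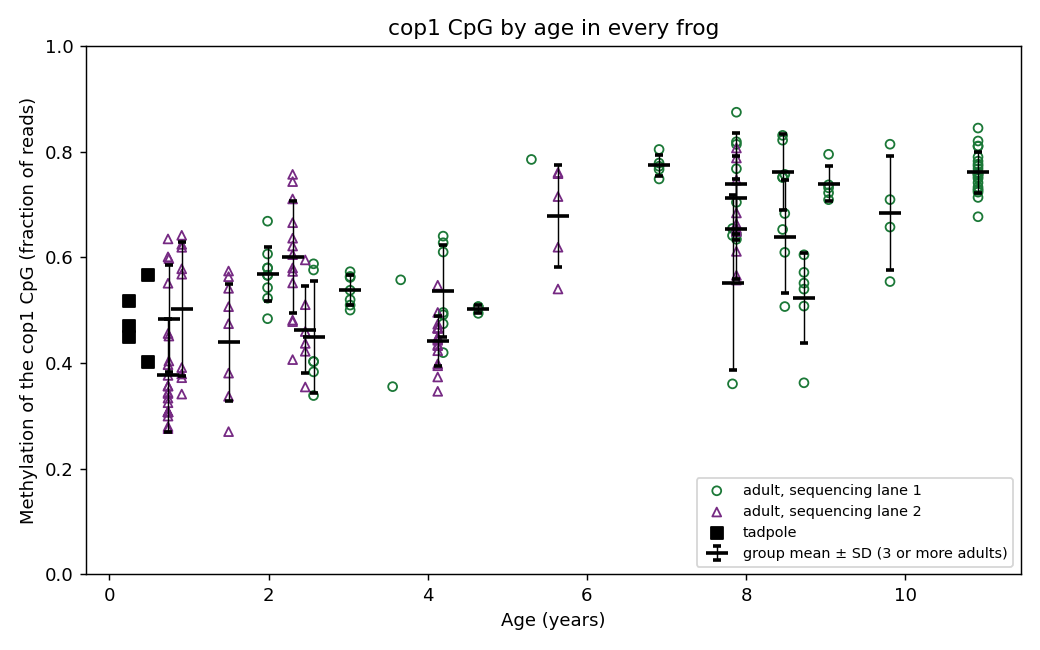
Methylation of the cop1 CpG (vertical axis, fraction of reads) against age in years (horizontal axis) in 187 adults and 5 tadpoles. Circles and triangles are adults of lanes 1 and 2, squares are tadpoles, and bars are group means ± SD for groups of at least 3 adults. The means rise from 0.377 in NIGERIAN F8 to 0.761 in the oldest frogs, while johMead at 3188 days has a mean of 0.523.

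The libraries were sequenced on 2 lanes, and the older frogs were mostly on lane 1. The correlation with age was 0.606 in the 96 adults of lane 1 and 0.521 in the 91 adults of lane 2. Mean CpG depth per frog, from 260 to 1103, had Spearman correlations of -0.02 with age and -0.01 with the cop1 CpG over the adults. With such small values, holding depth constant left the correlation at 0.675.

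The flanking CpG sorted the frogs into 3 separate levels, and the cop1 CpG followed them in the opposite direction. The flanking CpG had a fraction of 0 in 57 of the 192 frogs, from 0.278 to 0.472 in 64 frogs, and from 0.563 to 0.844 in 71 frogs. No frog had a value between these levels. It is 1 of the 542 CpGs removed by the study's filter as rebuilt here, a filter made for sites whose values fall into separate levels. As background, bisulfite sequencing reads an inherited T in place of the C of a CpG as an unmethylated C. The sequence of each frog at the flanking CpG was not analysed here, and the source of its levels was not tested. These levels were defined from the data after they had been seen and are not groups of the study, so the values within them are given with no test between them.

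The cop1 CpG was highest where the flanking CpG was lowest. In the 57 adults with a flanking fraction of 0, its lowest, median and highest values were 0.641, 0.757 and 0.875. In the 63 adults of the middle level they were 0.474, 0.580 and 0.710. In the 67 adults of the high level they were 0.270, 0.403 and 0.547. The adults with the lowest and the highest flanking level did not overlap at all, and 85.8% of the variance of the cop1 CpG over adults lay between the 3 levels. Age as a straight line took 49.4% of that variance, and age and levels together 87.3%.

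The same order held among tank mates, which have the same strain and, but for 1 frog, the same age. Of the 32 adult tanks, 16 held frogs of more than 1 level, with 112 frogs. In 15 of these 16 tanks the mean of the cop1 CpG was higher at each lower flanking level, and in 14 of 16 the levels did not overlap at all. In some of these tanks a level held 1 frog only, such as the middle level of OLIG2 F1. In SUPERMAN F8, the 5 frogs of the middle level had values from 0.568 to 0.642 and the 4 frogs of the high level from 0.341 to 0.391. In CMV MEM GFP, the 2 frogs with a flanking fraction of 0 had values of 0.743 and 0.757. The 8 CMV MEM GFP frogs of the middle level lay from 0.551 to 0.710, and the 3 of the high level from 0.406 to 0.481. The exceptions were the tank of 3 cenMead frogs, in which the frog at 0 had 0.641 and the frog of the middle level 0.654, and the psvbiMead tank, where 1 frog at 0 had 0.651 among middle-level frogs of 0.648 to 0.684.

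Within tanks, the deviations of the 2 CpGs from their tank means had a Pearson correlation of -0.83 and a Spearman correlation of -0.74 over 187 adults. Permuting the frogs within tanks gave p = 1e-05 for both, which is the smallest value possible with 100000 permutations, and 2e-05 after Benjamini-Hochberg adjustment over the 4 coefficients computed for 2 neighbours. Without the 2 frogs farthest from the median of the flanking CpG the Pearson correlation was -0.83. This was the largest within-tank correlation in size among the 6716 other CpGs. Over the fractions themselves, not the deviations from tank means, the Pearson correlation was -0.94 in all adults. Within the levels that coefficient was weaker, at -0.12 in the 63 adults of the middle level and -0.54 in the 67 of the high level. These values also hold differences between tanks, and in the high level the flanking fraction had a Spearman correlation of -0.64 with age. On the other side of cop1, the nearest CpG had an adult mean of 0.950 ± 0.0183 (SD) and did not follow the cop1 CpG, with a within-tank Pearson correlation of -0.02 (permutation p = 0.811, adjusted p = 0.978) and a Spearman correlation of -0.00 (permutation p = 0.978, adjusted p = 0.978).

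**Figure D2:**
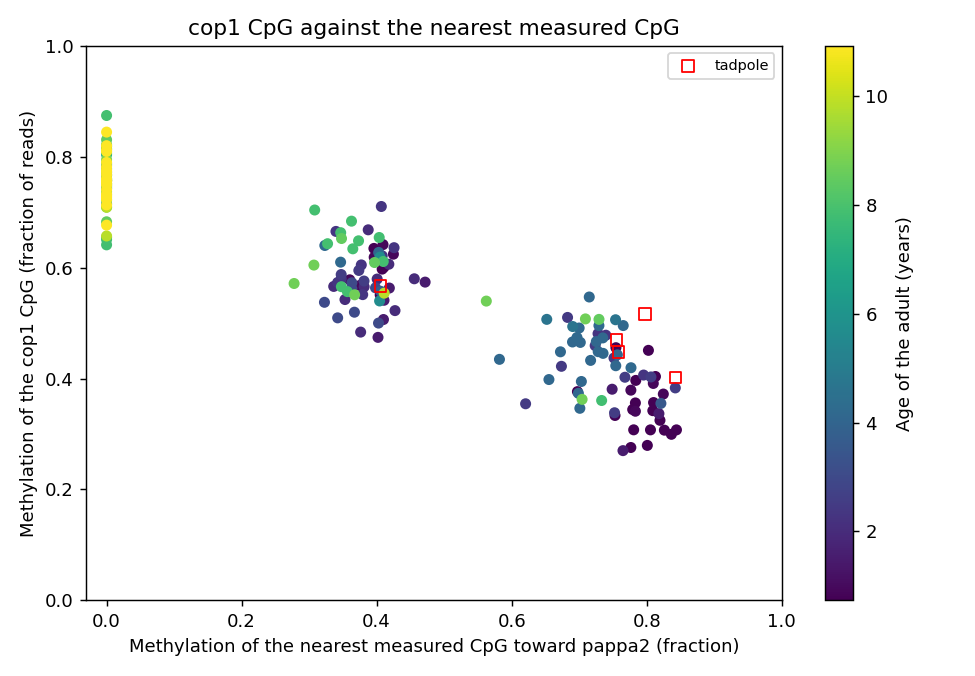
Methylation of the cop1 CpG (vertical axis, fraction) against that of the flanking CpG (horizontal axis, fraction) in 187 adults, coloured by age in years, and 5 tadpoles (open squares). The points form 3 separate columns, and the frogs with a flanking fraction of 0 lie at or above 0.641 on the vertical axis while those of the high level lie at or below 0.547.

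The share of frogs at each flanking level differed between ages, strains and lanes. None of the 48 adults under 2 years had a flanking fraction of 0, against 2 of 61 at 2 to 5 years, 19 of 32 at 5 to 8 years and 36 of 46 over 8 years. All 22 frogs of 3987 days and all 5 frogs of their strain at 2523 days had 0. On lane 1, 47 of 96 adults had 0, and on lane 2, 10 of 91. The Spearman correlation of the flanking CpG with age was -0.70. Since a strain mostly occurs at a single age, the flanking level, the strain and the age cannot be told apart between most groups.

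With the flanking CpG held constant in a partial rank correlation, an alternative added after the data had been seen, the correlation of the cop1 CpG with age was 0.10 in place of 0.675. It was 0.03 in the adults of lane 1 and 0.06 in those of lane 2. It was 0.35 when the 3 levels were held constant in place of the fraction itself. The correlation of the flanking CpG with the cop1 CpG was -0.85 with age held constant. Among the 320 CpGs called positive for age, the median correlation with age was 0.37, and 0.28 with the flanking CpG held constant. For the cop1 CpG the drop was 0.574, which is a description, since that CpG was chosen for its age correlation and the flanking CpG is its closest correlate. The other 9 of the 10 most positive CpGs kept partial correlations of 0.459 to 0.606. Of the 320, 21 had a partial correlation at or below that of the cop1 CpG, down to -0.055. The contributions of age and of the flanking level to the cop1 CpG were not tested apart from each other.

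Within the levels, the Spearman correlation with age ran from -0.03 to 0.67. In the 57 adults with a flanking fraction of 0, aged 2.30 to 10.9 years, the Spearman correlation of the cop1 CpG with age was -0.03 and the Pearson correlation 0.01. In the 63 adults of the middle level, aged 0.736 to 9.81 years, they were 0.17 and 0.28. In the 67 adults of the high level, aged 0.736 to 8.73 years, they were 0.67 and 0.58, and the Spearman correlation was 0.48 with the flanking fraction held constant within the level. Without the 2 adults farthest from the median age, the Pearson correlations were -0.01, 0.35 and 0.63 in the same order. Within lanes the high level gave 0.571 in 17 adults of lane 1 and 0.660 in 50 adults of lane 2. Over the means of the 15 tanks with high-level adults it was 0.622. Median ages of the low, middle and high levels were 9.04, 2.46 and 2.57 years. Of the 57 adults at a fraction of 0, 2 were of 2 to 5 years, 19 of 5 to 8 and 36 over 8. Of the 67 of the high level, 25 were under 2 years, 37 of 2 to 5, 1 of 5 to 8 and 4 over 8. The levels thus cover different ages, and their coefficients do not compare like age ranges. The difference between the levels was not tested, and these values are a description as well.

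Values of the high level did not rise steadily from group to group. In NIGERIAN F8 at 269 days, the lowest, median and highest of 16 such frogs were 0.276, 0.329 and 0.456. In NXR 1111 at 1507 days, those of 17 frogs were 0.346, 0.445 and 0.547. The 3 gtpbp2 F1 KO frogs of 1693 days had 0.494, 0.506 and 0.507. Medians of the other high-level groups up to that age, from young to old, began with 0.427 in Xtr.Tg(cryga:GFP)Grngr, 0.375 in SUPERMAN F8 and 0.337 in TYR. They went on with 0.478 in CMV MEM GFP, 0.437 in OLIG2 F1 and 0.393 in WT Superman. The 1 sox3 F0 frog had 0.355, and the median of Xtr.Tg(otx2:GFP)Kellr at 1532 days was 0.483. Only 5 frogs of this level were older than 1693 days. The 3 johMead frogs of 3188 days had 0.362, 0.508 and 0.540, the 1 hbrMead frog of 3100 days had 0.507, and the 1 cenMead frog of 2860 days had 0.360.

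**Figure D3:**
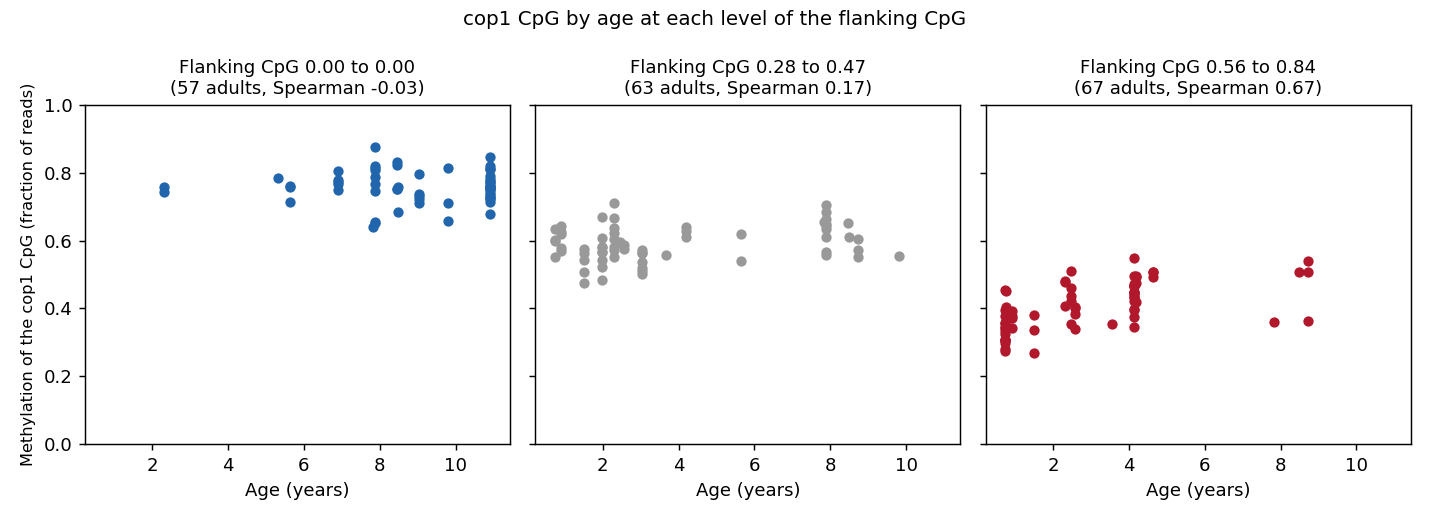
Methylation of the cop1 CpG (vertical axis, fraction) against age in years (horizontal axis) in the 57, 63 and 67 adults of the 3 levels of the flanking CpG, 1 panel per level and 1 point per frog. Spearman correlations with age are -0.03, 0.17 and 0.67, and the panels differ in height, with medians of 0.757, 0.580 and 0.403. The panels also differ in age, with median ages of 9.04, 2.46 and 2.57 years.

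Strains measured at 2 ages gave further values. The strain Xtr.Tg(eef1a1:GFP)Krieg had 0.748, 0.766, 0.772, 0.778 and 0.804 at 2523 days. At 3987 days its 22 frogs ranged from 0.677 to 0.845 with a median of 0.757, so that the 2 ages overlapped, and every frog of both had a flanking fraction of 0. The strain Xtr.Tg(otx2:GFP)Kellr had a mean of 0.538 ± 0.0289 (SD, n = 7) at 1105 days and 0.537 ± 0.0873 (SD, n = 7) at 1532 days. Its 7 younger frogs were all of the middle level, from 0.50 to 0.573. Of the older frogs, 3 were of the middle level, from 0.610 to 0.640, and 4 of the high level, from 0.419 to 0.495, so at the same flanking level the older frogs were higher and did not overlap the younger ones. In Xtr.Tg(cryga:GFP)Grngr, the 3 frogs of 273 days had 0.404, 0.451 and 0.597, with flanking fractions of 0.813, 0.803 and 0.408. The 4 frogs of 3583 days had 0.554 at a flanking fraction of 0.411, and 0.657, 0.709 and 0.814 at 0. At the middle level this strain has 1 frog of each age, with 0.597 at 273 days and 0.554 at 3583 days. In Xtr.Tg(CMV:Aequorin,GFP)NXR, 9 frogs of 726 days ranged from 0.484 to 0.668 with a median of 0.566, and the 1 frog of 1337 days had 0.557, all at the middle level. Each age of these strains came from its own tanks, so tank and age cannot be told apart. The tubb2b GFP tank held 5 frogs listed at 2059 days, with 0.540, 0.619, 0.715, 0.758 and 0.760, and the 1 frog listed at 547 days, with 0.574, a value inside their range. SUPERMAN F8 of 332 days and WT Superman of 937 days have different labels and were not counted as 1 strain. At the high level their medians were 0.375 and 0.393, and at the middle level 0.619 and 0.582, in different tanks and lanes.

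Other CpGs with a strong within-tank relation to the cop1 CpG lay on its own chromosome. Among the 654 other CpGs of this chromosome, 39 had a within-tank correlation with the cop1 CpG above 0.5 in size, all of them negative. None of the 6062 CpGs elsewhere did, and the range there was from -0.34 to 0.30. Of the 39, 38 were sites that the rebuilt filter removes. The 25 removed sites within 10 Mb of the cop1 CpG had a median correlation of 0.567 in size, the 25 at 10 to 20 Mb 0.549, the 22 at 20 to 30 Mb 0.431 and the 30 at 30 to 100 Mb 0.365. The 440 removed sites on other chromosomes and scaffolds had a median of 0.0675. The median size of the relation at removed sites thus fell with distance along the chromosome and was small elsewhere. These coefficients share frogs and tanks and are given as a description.

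The 5 most negative sites lay on both sides of cop1. After the flanking CpG, with -0.83, came sites 4.41 Mb away with -0.76, 0.745 Mb away with -0.74, 4.00 Mb away with -0.73 and 6.14 Mb away with -0.70. The second is 166075 bp from foxd2, a forkhead transcription factor gene, and the last 3 lie in the spans of rabgap1l, of dpyd, which encodes the enzyme that degrades pyrimidines, and of tgfbr3, a co-receptor gene for TGF-beta ligands. All 5 were removed by the filter, and 23 to 57 frogs had a fraction below 0.006 at each. These 5 were named after their values had been seen.

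**Figure D4:**
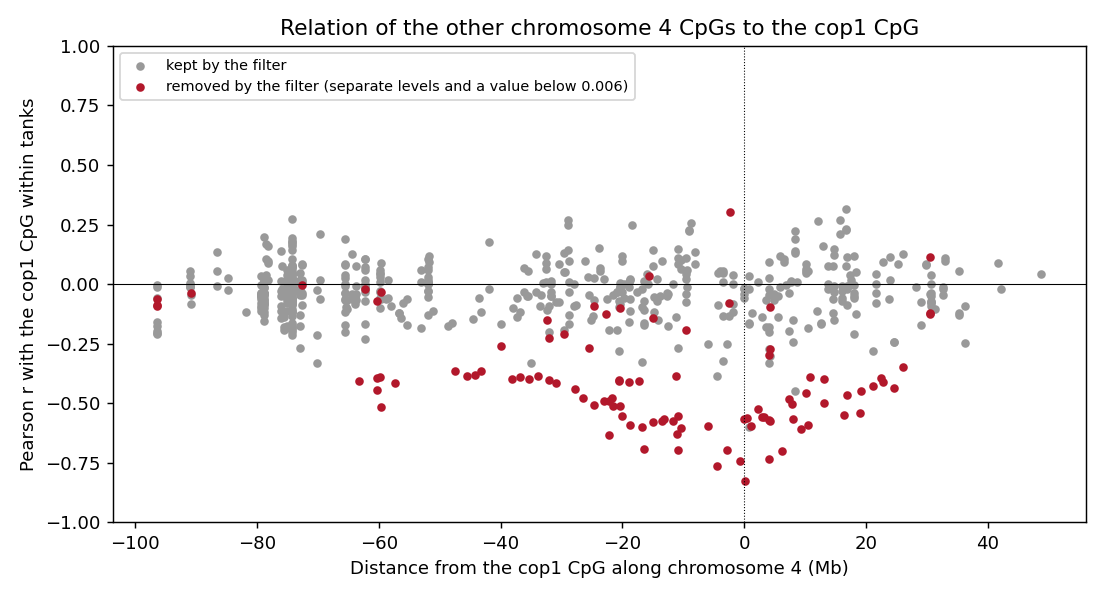
Within-tank Pearson correlation with the cop1 CpG (vertical axis) for the 654 other CpGs of chromosome 4 against distance from the cop1 CpG in Mb (horizontal axis, negative toward lower positions). Red points are the 102 sites removed by the rebuilt filter and grey points the 552 kept, and the red points reach down to -0.83 next to the cop1 CpG. Their median size falls with distance, but single red points do not follow this. Examples are -0.52 at -59.7 Mb, -0.41 at -63.3 Mb and 0.30 at -2.29 Mb.

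Within 500 kb outside the span and its margin there are 7 measured CpGs. In the probe on the lower side, the first of 5 CpGs had a mean of 0.458 ± 0.360 (SD), 41 of 192 frogs with a fraction below 0.006 and a within-tank correlation of -0.57, while the other 4 had means from 0.950 to 0.958 and correlations from -0.06 to -0.02. A single probe thus held both kinds of site. Their correlations with age were -0.44 for the first and from -0.27 to -0.18 for the others. On the upper side, beyond the flanking CpG, a site in brinp2, a gene named for bone morphogenetic protein and retinoic acid, lay 471912 bp away and had a within-tank correlation of -0.56 and an age correlation of -0.53. The cop1 CpG was the only 1 of these 8 sites with a positive age correlation, the trait for which it was chosen. Nothing is read from this, since 30.9% of all CpGs were called negative for age and 5.18% positive.

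Comparisons among frogs of 1 age gave no call for the cop1 CpG with limma after adjustment over 6175 CpGs. Age does not vary within them, but their frogs also entered the correlation by which the gene was chosen. In the 18 frogs of 2878 days, Xtr.Et(CAGGS-SB10;cryga:RFP)Mead had a lowest, median and highest value of 0.634, 0.736 and 0.875. The values of folMead were 0.557, 0.633 and 0.788, and those of psvbiMead 0.648, 0.673 and 0.819. The 3 strains overlapped, each in 1 tank and each with 3 frogs at a flanking fraction of 0 and 3 of the middle level. Lane went with strain here. All 6 frogs of Xtr.Et(CAGGS-SB10;cryga:RFP)Mead were on lane 1 and all 6 of folMead on lane 2, with 1 psvbiMead frog on lane 1 and 5 on lane 2, so lane and strain cannot be told apart for the first 2. Within lane 2, psvbiMead had a mean of 0.691 and folMead 0.654 (exact permutation p = 0.472), and lane 1 held too few psvbiMead frogs to compare. The adjusted p of the limma F test was 0.434, beside 11.8% of CpGs called at 0.05, and the permutation p of the F statistic was 0.273 for the single site (0.356 adjusted over the 5 comparisons of this kind).

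Among the young adults, NIGERIAN F8 had a lowest, median and highest value of 0.276, 0.342 and 0.635 over 19 frogs. The 3 Xtr.Tg(cryga:GFP)Grngr frogs had 0.404, 0.451 and 0.597, and SUPERMAN F8 had 0.341, 0.568 and 0.642 over 9 frogs. The groups overlapped throughout. Low values in these young frogs helped to choose the gene, so the comparison of their strains is not free of that choice. The middle flanking level held 3 of the 19, 1 of the 3 and 5 of the 9 frogs. The adjusted p of the limma F test was 0.112 (9.81% of CpGs called). Without NIGERIAN F8 frog 174 it was 0.033 and without frog 178 it was 0.048, both frogs of the middle level with values of 0.635 and 0.601, and with the flanking CpG as a covariate it was 0.123. Without the 3 webbing samples titled as tadpoles it was 0.102. The permutation p of the single site was 0.0264 (0.0659 adjusted over the comparisons). Each of these strains came from 1 tank and has its own age, so strain, tank and age cannot be told apart here. These p-values count the frogs of a tank singly.

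The 2 tanks of NXR 1111, of the same age, strain and lane, had nearly the same values. Tank B415 had a lowest, median and highest value of 0.346, 0.448 and 0.473 over 9 frogs, and tank B417 had 0.395, 0.439 and 0.547 over 8 frogs. All 17 frogs were of the high flanking level. The difference was 0.15 ± 0.14 (SE) on the log2 logit scale, higher in B417, with a limma adjusted p of 0.425. The exact permutation p for the single site was 0.285. Between these tanks 22.1% of all CpGs were called, which are 1365 sites, all of them higher in B417. That count rested on single frogs, from 364 without frog 148 to 2040 without frog 154.

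The 4 tanks of the 22 oldest frogs differed more. The 4 frogs of tank A137 had 0.782, 0.810, 0.811 and 0.845, and the 4 frogs of tank A135 had 0.677, 0.733, 0.752 and 0.768. These 2 tanks did not overlap. Tank A133 had a lowest, median and highest value of 0.727, 0.756 and 0.776 over 8 frogs, below every frog of A137, and tank A139 had 0.713, 0.755 and 0.820 over 6 frogs. All had a flanking fraction of 0. The limma adjusted p of the F test was 0.162, beside 0.551% of CpGs called. These were 34 sites, and from 1 without frog 58 to 63 without frog 47. The permutation p for the single site was 0.0095 (0.0475 adjusted over the comparisons). Age, strain, lane and the flanking level were equal in these tanks, whose means ran from 0.732 to 0.812.

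Tadpoles lay inside the range of the young adults. The 3 Superman F9 WT tadpoles had 0.448, 0.470 and 0.516, with flanking fractions from 0.756 to 0.798. The 2 ZBTB14 KO tadpoles had 0.401 and 0.567, with flanking fractions of 0.842 and 0.406. The mean was 0.481 ± 0.0637 (SD, n = 5), against 0.423 ± 0.124 (SD, n = 31) in the young adults, which ranged from 0.276 to 0.642. The difference was 0.35 ± 0.33 (SE) on the log2 logit scale, with a limma adjusted p of 0.411, while 38.8% of all CpGs were called. The exact permutation test over the means of 2 tadpole and 3 adult tanks gave p = 0.900, and the smallest p this design allows is 0.100. With the flanking CpG as a covariate, an alternative added after the data had been seen, tadpoles were higher by 0.47 on that scale, with an adjusted p of 0.0115. In that model 2390 of the 6175 CpGs were called. Without the 3 webbing samples titled as tadpoles the difference was 0.39 (adjusted p = 0.358), and 0.51 with the covariate (adjusted p = 0.0046). Both p-values with the covariate count 5 tadpoles of 2 tanks singly, and the covariate is the closest correlate of the cop1 CpG. They are given as a description. The 4 tadpoles of the high flanking level had 0.401 to 0.516, and the 22 young adults of that level had values from 0.276 to 0.456. Stage, tissue and tank cannot be told apart in this comparison. Low values in the young adults also helped to choose the gene, so a higher value in tadpoles is not free of that choice.

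**Figure D5:**
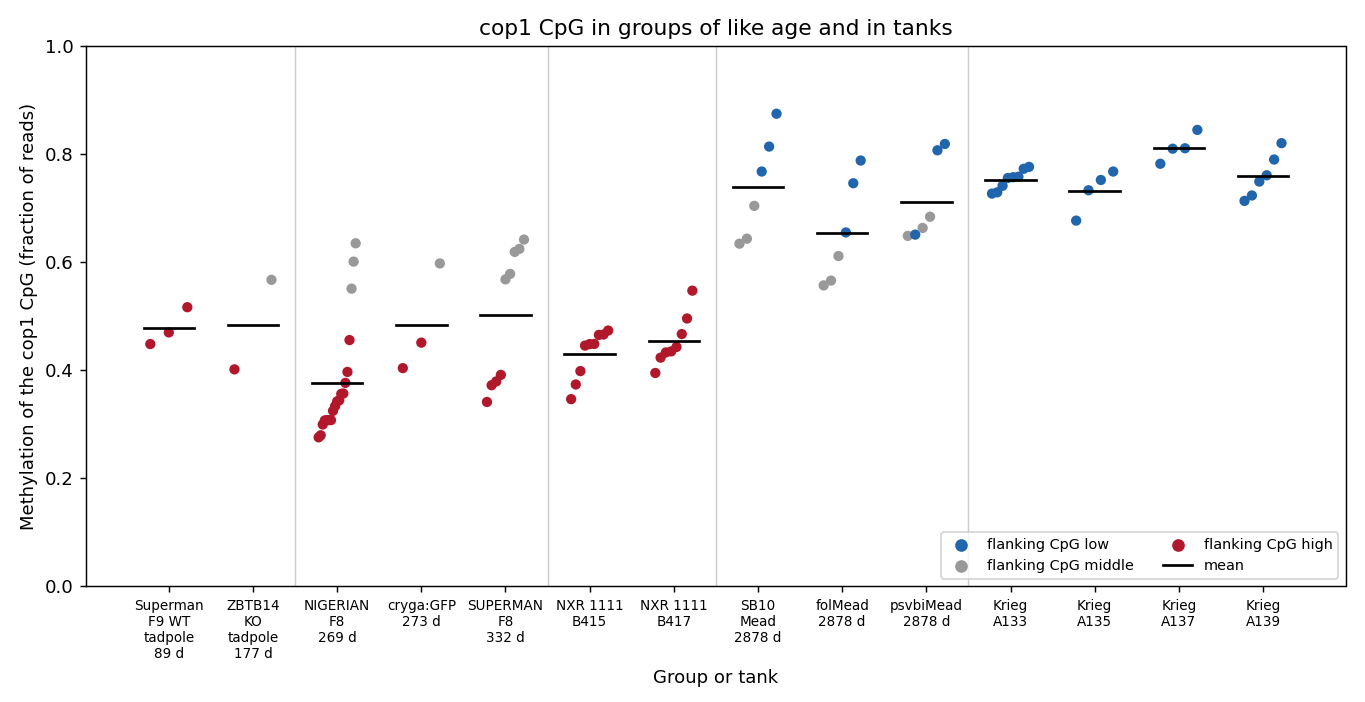
Methylation of the cop1 CpG (vertical axis, fraction) in tadpoles, strains under 1 year, the 2 tanks of NXR 1111, the 3 strains of 2878 days and the 4 tanks of Krieg frogs of 3987 days (horizontal axis). Each point is a frog, coloured by the level of the flanking CpG, and lines are means. In SUPERMAN F8 the 5 frogs of the middle level lie above the 4 of the high level, while in psvbiMead 1 frog of the low level lies among those of the middle level. The 4 tanks of 3987 days, all of the low level, have means from 0.732 to 0.812.

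The 5 CpGs outside the span with the highest Spearman correlation with the cop1 CpG over the 187 adults were not its neighbours. They were Chr8:13391160 with 0.573 and Chr8:13391179 with 0.554, both in the span of LOC116406642, Chr1:65436019 with 0.554 at 101454 bp from ankrd50, Chr4:33122154 with 0.554 at 20221 bp from LOC116410346, and Chr1:112568216 with 0.528 at 15043 bp from gdf1, a gene of the TGF-beta family. Within tanks their Pearson correlations with the cop1 CpG were from -0.05 to 0.19, far below the size of that of the flanking CpG. They share the frogs' ages and strains. Their own age correlations were 0.486, 0.460, 0.761, 0.396 and 0.675. With the flanking CpG held constant those became 0.169, 0.179, 0.606, 0.044 and 0.548, so that the sites near ankrd50 and gdf1 kept most of theirs.

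Among genes linked to COP1 in other species, 1 had a measured CpG. Of a list of 34 genes for its partners (such as det1, ddb1 and cul4a), its adaptors (such as trib1), its substrates (such as jun, ets1 and cebpa) and 2 other ligases of p53 (mdm2 and rchy1), 31 were found by symbol in the annotation, and 1 had a measured CpG in its span or within 5 kb. That gene was acaca, which encodes the acetyl-CoA carboxylase of fatty acid synthesis, a COP1 substrate in mammals. Its CpG at Chr2:76011206, in the gene's span, had a mean methylation of 0.504 ± 0.111 (SD, n = 31) in the young adults. The mean was 0.407 ± 0.0909 (SD, n = 22) at 3987 days. The Spearman correlation with age was -0.44, with an adjusted p of 4.14e-09 over frogs that share tanks and ages. In this direction 30.9% of all CpGs were called. The sign is opposite to that of the cop1 CpG, but nothing is read from this, since the cop1 CpG was chosen for a positive one. No CpG of the list was called in the positive direction, and the panel measured no site near the genes of the other 30. The share of all annotated genes with a measured CpG was not counted, so nothing is read from this coverage.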

How the data were processed

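The cop1 CpG is at Chr4:98635904. The authors deposited the methylation fraction (0 to 1) of 6717 CpGs covered by 100 or more reads in each of 192 frogs, 1 column per frog, as called by BiSulfite Bolt against the v10.0 assembly and not normalized further. For the columns named by digits the unit was recorded as other, and the deposited values there are fractions too. The read counts behind a single value are not known. Tank, lane and mean CpG depth came from the study's sample table. Per the labels, SAMtools 1.11 and fastp were used.

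The study's mixture filter was rebuilt with scikit-learn 1.9.0 (BIC difference of a 1- and a 3-component mixture above 90, and a smallest value below 0.006) and left 6175 CpGs. The study's own list of removed sites was not used, so single sites may differ from it. limma 3.58.1 in R 4.3.3 was run on the log2 logit (offset 0.001, threshold 0.05). Age correlations were Spearman (scipy 1.17.1) with a threshold of 0.001. Partial correlations used residuals of ranks. Permutations were two-sided or of F, 100000 in number unless exact. Frogs of a tank share their surroundings, so p-values over frogs measure the spread among these frogs. The levels of the flanking CpG were cut at the 2 widest gaps. Named were each member, the nearest measured CpG on each side, those within 500 kb and the 5 most alike. Members, lists and tests were chosen with earlier results of these data known. In all 540 probes with 1 CpG, the measured position was 2 bases past that counted from the listed start. Alternatives were the scale, the offset, the filter, lanes, tanks and frogs left out, and the flanking CpG as a covariate. The scripts were tested on simulated data.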

Additional observations from a re-analysis of the deposited data

How the results depend on the processing

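No paired analysis was possible because the labels number each frog once and the groups share no replicate numbers. The age correlation of the cop1 CpG, 0.675, was 0.521 in lane 2 alone and 0.558 with lane held constant. With the flanking CpG held constant, an alternative added after seeing the data, it was 0.101 over all adults, 0.0255 in lane 1, 0.0582 in lane 2, 0.0756 over tank means, 0.0894 without the frogs of 3987 days and 0.107 without the tubb2b GFP frog of 547 days, and it was 0.350 with the level alone held constant. The other 8 alternatives moved it by less than 1 standard error. Leaving out 1 tank at a time gave 0.606 (without B226) to 0.722 (without B309).

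For tadpoles against young adults, the difference was 0.466 with the flanking CpG as a covariate (adjusted p = 0.0115), and it turned to -0.601 against all adults (adjusted p = 0.308). Without the 3 webbing samples titled as tadpoles, also an added alternative, the difference with that covariate was 0.508 (adjusted p = 0.0046). As said above, both p-values with the covariate are a description. Leaving out 1 tadpole gave 0.226 to 0.467. Over its 8 other alternatives the adjusted p ran from 0.0046 to 0.523. For young strains, leaving out 1 frog gave adjusted p-values of 0.033 to 0.200. Without the samples titled as tadpoles and with the covariate, the adjusted p of the limma F test was 0.574. With limma, the other comparisons of strains and tanks kept their side of the threshold under every alternative run. For the oldest tanks the limma adjusted p was 0.162. The permutation p of the single site there was 0.0095, or 0.0475 adjusted over the 5 comparisons. The covariate could not be fitted in the oldest frogs, where the flanking CpG does not vary. On fractions in place of logits, 734 CpGs in place of 1365 were called between the NXR 1111 tanks, and 1 in place of 34 between the oldest tanks. Leaving out 1 frog moved these counts from 364 to 2040 and from 1 to 63. Among the young strains, 606 CpGs were called, and 321 without the samples titled as tadpoles (255 with the covariate too).

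A single CpG stands for a gene of 91303 bp here. The counts of reads behind each value are not known beyond the minimum of 100, so no interval is given for a single frog. Strain, tank and age overlap almost wholly, 4 tanks held a single frog each, and the tadpoles came from 2 tanks.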
